A study of Mus musculus with 8 samples.

Results

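The genes described here encode the voltage-gated sodium and calcium channels, the potassium channels of all families, the pacemaker channels and their auxiliary subunits. They were taken as every gene whose symbol begins with Kcn, Cacn, Scn plus a digit or Hcn plus a digit. The deposited tables hold 18144 genes, of which 128 met this rule. Values in all 8 libraries were held for 115 of them, and 82 had enough counts to be tested, among 13953 tested genes in all. The other 33 with values stayed below the filter on low counts, with at most 0.995 CPM (counts scaled to library size) in any library and a median highest value of 0.302 CPM. No PBS value was held for 3 genes, Kcnj9 and Kcnj16 among them. Kcnh7, Kcnmb3, Kcnmb2, Cacng5, Scn1a, Kcnk10 and Scn9a were listed only in the nanocage table, and Kcns2, Kcnf1 and Cacng2 only in the PBS table, so these 13 genes were not compared.

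The RNA came from hearts of mice that had undergone ischemia-reperfusion, in which blood flow is stopped and then restored, and all 4 groups share this injury. The groups were PBS and the protein nanocages iFTn-M4, iFTn-R4 and iFTn-MR4, each with 2 libraries, and the series title describes such nanocages as nanozymes that scavenge superoxide inside cells. Mice received 2 doses on alternate days, of 2.5 mg/kg protein in the nanocage groups, and RNA was taken from heart tissue after 3 days. Strain, sex and age are not in the labels, and an uninjured group was not analysed here. What the letters M and R stand for is not stated in the labels either.

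Ion channels set the electrical cycle of the heart. Sodium channels start the action potential, L-type calcium channels carry the plateau current that triggers contraction, and several potassium currents return the membrane to rest. In mice the fast transient outward current, formed by Kcnd pore subunits with the partner Kcnip2, dominates this return. Loss of transient outward potassium channels is a well-known feature of diseased ventricular muscle. Inward rectifiers hold the resting potential, and those of the KATP type open when ATP is low.

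Total expected counts per library were 13618128 to 15729311, so 3 counts, taken as the floor, correspond to 0.188 to 0.227 CPM. The 2 libraries of a group differed by more than counting noise in all groups (chi-square over its degrees of freedom 4.8 to 15.42, the highest in iFTn-R4). Separate animals within a group are not stated, and the p-values therefore reflect variation between these libraries alone, which may be technical. PBS was deposited apart from the nanocage groups, so an effect of PBS and an effect of its table cannot be told apart. Channel genes took 0.206% and 0.217% of the counts in the PBS libraries, 0.234% and 0.243% in iFTn-R4, 0.243% and 0.264% in iFTn-M4, and 0.292% and 0.285% in iFTn-MR4. On the TPM scale, which accounts for transcript length, the sum over channel genes was 690 and 698 in PBS against 1080 in both iFTn-MR4 libraries.

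More channel genes were higher than lower in every nanocage group. Against PBS, 30 of 82 rose and 8 fell in iFTn-M4, a total of 38, where 19.8% of all genes rose, 21.4% fell and 41.2% did either. In iFTn-R4 16 rose and 2 fell, a total of 18, against 13.9%, 15.4% and, in either direction, 29.4% of all genes. In iFTn-MR4 35 rose and 6 fell, a total of 41, against 24.6%, 26.3% and 50.9% of all genes. The share of channel genes called in either direction was thus close to that of all genes in iFTn-M4 and iFTn-MR4, and the balance lay on the side of rises. Rose and fell are used here only where the Benjamini-Hochberg adjusted p of edgeR's quasi-likelihood test is under 0.05. The median log2 fold change over the 82 genes was 0.38, 0.17 and 0.49 in iFTn-M4, iFTn-R4 and iFTn-MR4, while the median over all genes was close to 0. In limma on log2(TPM + 1) the median of all genes shifted to 0.14, 0.20 and 0.11, and that of the channel genes was 0.27, 0.22 and 0.30. On that scale 31, 22 and 37 of the 82 channel genes rose and 2, 1 and 4 fell. Of all 13953 genes 4154, 4503 and 4336 rose and 1733, 660 and 2575 fell. In iFTn-R4 the share of channel genes that rose on TPM, 26.8%, was thus below that of all genes. Without PBS replicate 2 the total for iFTn-M4 went from 38 to 25, and without PBS replicate 1 that for iFTn-R4 went from 18 to 9.

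Fold changes against PBS followed transcript length over all genes, with Spearman correlations of 0.39, 0.50 and 0.35 in iFTn-M4, iFTn-R4 and iFTn-MR4. Channel transcripts are long, with a median effective length of 4167 bases against 2648 over all tested genes. Across the 82 channel genes themselves the correlation was 0.16, 0.19 and 0.23, over genes that are not independent replicates. A length offset, which subtracts each library's trend on length, moved single channel genes by between -0.51 and 0.33 on the log2 scale. With it, 22 rose and 9 fell in iFTn-M4, against 16.9% and 15.8% of all genes. In iFTn-R4 7 rose and 3 fell, against 6.48% and 7.4% of all genes. In iFTn-MR4 31 rose and 10 fell, against 24.5% and 20.7% of all genes. The medians became 0.29, 0.09 and 0.37. What gave rise to the trend was not tested, so values with the offset stand beside those without it below.

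**Figure D1:**
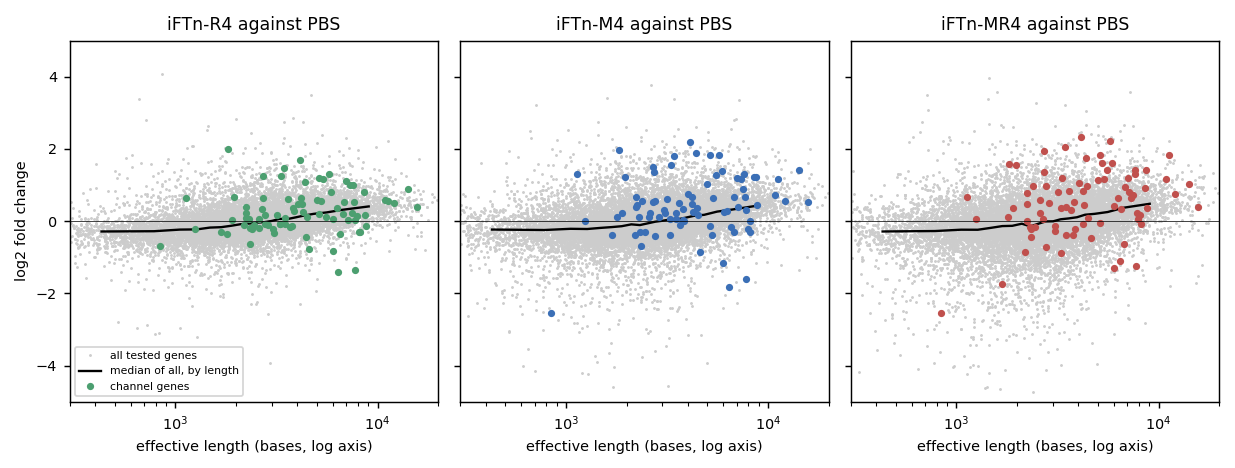
Log2 fold change against PBS (y axis) by effective transcript length in bases (log x axis) for all tested genes (grey), the channel genes (coloured) and the median of all genes in 20 length bins (black line). The black line climbs with length in each panel, and the channel genes lie mostly on the long side, with a median of 4167 bases; 207 to 215 genes fall outside the axes.

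Genes that rose with all 3 nanocages came from several families. Of the 82, 15 rose in all 3 groups, among them Cacna1c, Cacna1s, Kcnd2, Kcnd3, Kcne1, Kcnip2, Kcnj12, Kcnj5, Kcnn3, Kcnv2, Scn3a, Scn4a and Scn7a. Of these, 5 passed in all 3 groups under each setting listed in the closing section, namely Kcnip2, Cacna1s, Scn7a, Kcne1 and Kcnv2. Another 11 rose in iFTn-M4 and iFTn-MR4 without passing in iFTn-R4, and 32 passed in none of the 3 comparisons with PBS. These are 18.3%, 13.4% and 39% of the 82, where the same patterns held for 10.6%, 6.62% and 40.1% of all tested genes. With the offset they were 6, 11 and 33 genes, or 7.32%, 13.4% and 40.2%, against 5.14%, 9.6% and 48.8% of all genes. How many of all tested genes passed in all 3 groups under each setting was not counted. The 3 comparisons share the PBS libraries. Scn3a rose by 1.23, 0.81 and 0.91 in iFTn-M4, iFTn-R4 and iFTn-MR4 (edgeR adjusted p = 0.00459, 0.0446 and 0.0174). In iFTn-R4 and iFTn-MR4 it did not pass with the offset (edgeR adjusted p = 0.275 and 0.135) or in DESeq2 (adjusted p = 0.134 and 0.0576). Of the 5 genes that passed under each setting, Kcnip2, Cacna1s and Scn7a had a listed promoter. Their promoters are shown here with that of Kcne3, the gene with the largest fall against PBS, so that the sequences can be compared. Each runs 5′ to 3′ along the gene's strand from 250 bases before to 50 bases after the start listed for that promoter on GRCm38.p6. They lie at chr19:45816014-45816313 on the minus strand for Kcnip2, chr1:136052561-136052860 on the plus strand for Cacna1s, chr2:66784861-66785160 on the minus strand for Scn7a and chr7:100176420-100176719 on the plus strand for Kcne3, the first of 2 listed. Capitals mark a GC box (GGGCGG on either strand) or a GATA site (AGATAA on either strand).
Kcnip2: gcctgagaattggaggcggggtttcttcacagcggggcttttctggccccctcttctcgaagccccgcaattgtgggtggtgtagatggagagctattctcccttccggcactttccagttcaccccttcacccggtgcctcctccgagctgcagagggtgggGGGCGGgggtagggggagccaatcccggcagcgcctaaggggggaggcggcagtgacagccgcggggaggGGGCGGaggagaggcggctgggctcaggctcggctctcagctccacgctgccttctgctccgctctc
Cacna1s: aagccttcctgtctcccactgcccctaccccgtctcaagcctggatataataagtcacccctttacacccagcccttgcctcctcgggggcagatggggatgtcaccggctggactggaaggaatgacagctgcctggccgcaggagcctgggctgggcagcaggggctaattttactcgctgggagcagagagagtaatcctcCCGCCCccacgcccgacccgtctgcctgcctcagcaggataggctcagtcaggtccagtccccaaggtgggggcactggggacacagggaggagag
Scn7a: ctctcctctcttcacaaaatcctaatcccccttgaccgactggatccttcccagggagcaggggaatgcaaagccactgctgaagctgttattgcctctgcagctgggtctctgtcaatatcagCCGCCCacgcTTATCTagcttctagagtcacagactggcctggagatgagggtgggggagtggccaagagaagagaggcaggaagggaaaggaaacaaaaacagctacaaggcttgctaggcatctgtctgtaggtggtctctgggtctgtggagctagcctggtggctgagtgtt
Kcne3: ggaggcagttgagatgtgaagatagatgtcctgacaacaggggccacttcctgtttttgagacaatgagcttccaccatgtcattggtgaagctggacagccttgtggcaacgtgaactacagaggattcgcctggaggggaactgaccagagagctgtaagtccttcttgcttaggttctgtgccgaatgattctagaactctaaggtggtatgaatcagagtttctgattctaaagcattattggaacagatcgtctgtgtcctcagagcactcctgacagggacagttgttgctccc
For Kcne1 and Kcnv2 no promoter was listed, so none is shown. A GC box stands in the windows of Kcnip2 (at -87 and -17 from the start), Cacna1s (-46) and Scn7a (-126), and a GATA site in that of Scn7a (-116). Positions count from the listed start, which for Kcnip2 and Kcne3 lies inside the gene's span given below, near its 5′ end. No letters of the other motifs searched, the TATA box TATAAA, the E-box CACGTG, the CArG box and the MEF2 site, were in the 4 windows. Among 27025 promoters of the same length a GC box was in 35.9% and a GATA site in 11.4%. Among the 58 listed promoters of tested channel genes they were in 50% and 5.17%, with a median GC content of 60% against 52.7%. The Kcne3 window held 48.3% GC.

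Kcnip2 (Entrez gene 80906, chromosome 19, 45792346 to 45816422), the cytosolic partner that carries Kcnd pores to the membrane and shapes their gating, rose in all 3 groups. Its level was 82.8 and 80.8 CPM in the PBS libraries, 124 and 137 in iFTn-R4, 177 and 201 in iFTn-M4, and 246 and 232 in iFTn-MR4. The 4 groups did not overlap. Against PBS it rose 1.59-fold in iFTn-R4 (log2 fold change 0.67 ± 0.09 SE, edgeR adjusted p = 0.00126), 2.31-fold in iFTn-M4 (1.21 ± 0.09, 2.55e-05) and 2.92-fold in iFTn-MR4 (1.55 ± 0.09, 4.27e-06). Its transcript is short for the family, at 1960 bases, and the length offset raised the 3 values to 0.80, 1.38 and 1.75. In TPM it was the third most abundant tested channel gene in PBS, at 56.6 ± 2.81 (SD, n = 2), and the most abundant in iFTn-MR4, at 178 ± 7.66.

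The Kcnd pore genes Kcnd2 and Kcnd3 rose with less margin, and Kcnd1 passed in none of the 3 comparisons with PBS without the offset. Kcnd2, one of the transient outward pores, was at 13.5 and 13.4 CPM in PBS, 21.4 and 18.9 in iFTn-R4, 22.0 and 32.7 in iFTn-M4, and 29.4 and 29.6 in iFTn-MR4. All nanocage libraries lay above PBS, and the iFTn-M4 pair was spread around the iFTn-MR4 pair. The log2 fold changes were 0.59 ± 0.17, 1.03 ± 0.17 and 1.14 ± 0.17 in iFTn-R4, iFTn-M4 and iFTn-MR4 (edgeR adjusted p = 0.0284, 0.00126 and 0.000472), and 0.38, 0.83 and 0.94 with the length offset. Kcnd3, the other transient outward pore of the ventricle, was at 12.3 and 12.9 CPM in PBS, 15.6 and 21.1 in iFTn-R4, 21.1 and 19.2 in iFTn-M4, and 26.2 and 22.7 in iFTn-MR4. It rose by 0.54 ± 0.15, 0.68 ± 0.15 and 0.96 ± 0.15 (edgeR adjusted p = 0.0259, 0.00648 and 0.000672). With the offset only the iFTn-MR4 value of Kcnd3 passed, at 0.64, and in iFTn-R4 neither gene passed (edgeR adjusted p = 0.169 for Kcnd2 and 0.325 for Kcnd3). Without a single library the iFTn-R4 call ended for Kcnd2 (either PBS library or iFTn-R4 replicate 1, edgeR adjusted p up to 0.114) and Kcnd3 (either PBS library or iFTn-R4 replicate 2, up to 0.156), and the iFTn-M4 call of Kcnd3 ended without iFTn-M4 replicate 1 (0.0509). The slower transient outward pore Kcna4 was at 4.68 and 5.16 CPM in PBS and 3.38 to 6.43 CPM elsewhere, and did not pass against PBS.

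**Figure D2:**
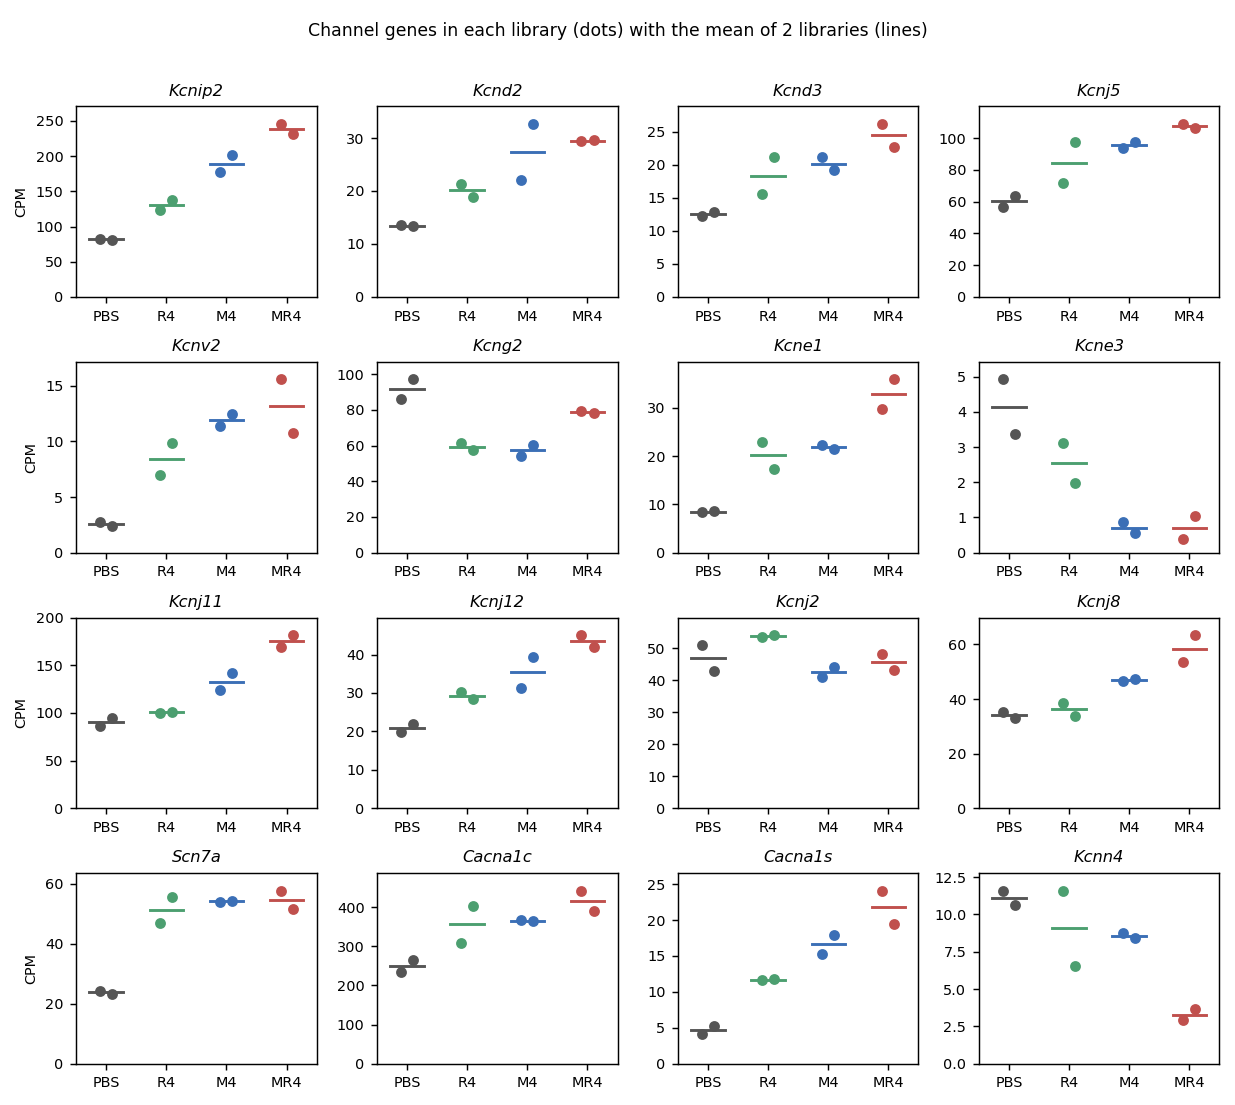
Level in CPM (y axis, from 0) of 16 channel genes in each library, by group on the x axis (R4, M4 and MR4 are the iFTn nanocages), with dots for libraries and lines for the mean of 2. Kcnip2 climbs from 80.8 and 82.8 in PBS to 232 and 246 in iFTn-MR4 without overlap between groups, while Kcne3 is lowest in iFTn-M4 and iFTn-MR4.

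The delayed rectifiers repolarise the membrane after the transient current. Kcnq1, the pore of the slow delayed rectifier, was at 61.5 and 64.5 CPM in PBS and 49.9 and 53.3 in iFTn-M4. It fell by 0.29 ± 0.09 on the log2 scale in iFTn-M4 (edgeR adjusted p = 0.0273), and this call ended with the offset (0.158) and without any single PBS or iFTn-M4 library (0.064 to 0.133). Kcnh2, the rapid delayed rectifier (hERG), was at 64.2 and 71.3 CPM in PBS and 92.3 and 82.5 in iFTn-MR4, where it rose by 0.37 ± 0.10 (edgeR adjusted p = 0.0107, and 0.0105 with the offset). That rise did not pass without PBS replicate 1 or iFTn-MR4 replicate 1 (0.0864 and 0.0733). Kcna5, an ultrarapid delayed rectifier, ranged from 22.8 to 44.7 CPM over the 8 libraries and passed in no comparison with PBS.

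Of the Kcna genes tested, Kcna1, Kcna2, Kcna6 and Kcna7 rose in iFTn-M4 and iFTn-MR4. The iFTn-M4 calls of Kcna1 and Kcna6 ended without PBS replicate 2 (edgeR adjusted p = 0.0527 and 0.0705) or iFTn-M4 replicate 2 (0.0734 and 0.0962), and that of Kcna1 with the offset (0.0503). That of Kcna7 ended when PBS replicate 2, iFTn-M4 replicate 1 or iFTn-M4 replicate 2 was left out (0.0667 to 0.101). Kcna2, a pore best known from nerve, was at 1.96 and 2.51 CPM in PBS, 3.19 and 3.38 in iFTn-R4, 4.79 and 5.17 in iFTn-M4, and 9.0 and 7.05 in iFTn-MR4. The 4 groups did not overlap. It rose by 1.16 ± 0.23 in iFTn-M4 and 1.84 ± 0.22 in iFTn-MR4 (edgeR adjusted p = 0.00343 and 0.000146), or 0.72 and 1.38 with the offset. On log2(TPM + 1), where low genes move less, the 2 values were 0.41 and 0.70 and still passed. Over the whole group of voltage-gated potassium pores, 19 of 28 were tested. In iFTn-M4 9 rose and 3 fell, in iFTn-R4 4 rose and 0 fell, and in iFTn-MR4 9 rose and 0 fell, with medians of 0.60, 0.20 and 0.83. With the offset 4 rose and 2 fell in iFTn-M4, 1 rose in iFTn-R4, and 9 rose and 1 fell in iFTn-MR4, with medians of 0.42, 0.14 and 0.71. The largest falls in iFTn-M4 were at low levels. Kcnq5, a neuronal M-current pore, was at 0.948 and 1.32 CPM in PBS and 0.215 and 0.414 in iFTn-M4 (log2 fold change -1.81 ± 0.55, edgeR adjusted p = 0.025). Its call ended when PBS replicate 2, iFTn-M4 replicate 1 or iFTn-M4 replicate 2 was left out (0.0639 to 0.147). Kcnh6, a relative of Kcnh2, was at 0.821 and 0.264 CPM in PBS and 1.36 and 1.86 in iFTn-M4, with counts that were not whole in 4 libraries (1.54 ± 0.54, edgeR adjusted p = 0.0447). It did not pass with the offset (0.0547), nor when PBS replicate 2, iFTn-M4 replicate 1 or iFTn-M4 replicate 2 was left out (0.0833 to 0.235), and without PBS replicate 1 its value was 2.57.

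The silent subunits, which form no channel alone but modify other pores, moved in opposite directions. Kcnv2 (Entrez gene 240595, chromosome 19, 27322061 to 27337179) was at 2.78 and 2.38 CPM in PBS, 6.94 and 9.88 in iFTn-R4, 11.4 and 12.5 in iFTn-M4, and 15.6 and 10.8 in iFTn-MR4. All 6 nanocage libraries exceeded both PBS libraries, and iFTn-M4 overlapped with iFTn-MR4. Its rises were 1.7 ± 0.26, 2.2 ± 0.25 and 2.35 ± 0.25 (edgeR adjusted p = 0.00202, 0.000209 and 7.94e-05), or 3.24-fold, 4.61-fold and 5.08-fold, and 1.56, 2.09 and 2.24 with the offset. These were the largest rises among channel genes in iFTn-M4 and iFTn-MR4 that met the rule for naming. On log2(TPM + 1) the last 2 were 1.6 and 1.71. Kcng2 went the other way, from 86.0 and 97.1 CPM in PBS to 61.5 and 57.2 in iFTn-R4 and 54.2 and 60.4 in iFTn-M4, with 79.5 and 78.0 in iFTn-MR4. PBS was highest and did not overlap with any group. It fell by 0.62 ± 0.09 and 0.68 ± 0.09 on the log2 scale in iFTn-R4 and iFTn-M4 (edgeR adjusted p = 0.00144 and 0.000385), and by 0.55 and 0.55 with the offset. In iFTn-MR4 it did not pass, at -0.22, and it was higher there than in iFTn-R4 (0.41 ± 0.09, edgeR adjusted p = 0.00888, but 0.0568 without iFTn-MR4 replicate 1).

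Among auxiliary potassium subunits in iFTn-MR4, both the largest rise and the largest fall were in the Kcne family of single-pass partners. Kcne1 (Entrez gene 16509, chromosome 16, 92346001 to 92359468), which slows Kcnq1 gating, was at 8.47 and 8.53 CPM in PBS, 23.0 and 17.3 in iFTn-R4, 22.3 and 21.4 in iFTn-M4, and 29.8 and 35.9 in iFTn-MR4. PBS was lowest by a wide margin and iFTn-MR4 highest, and the other 2 groups overlapped. The rises were 2.37-fold, 2.57-fold and 3.86-fold (log2 fold change 1.25 ± 0.16, 1.36 ± 0.16 and 1.95 ± 0.15, edgeR adjusted p = 0.000975, 0.000219 and 1.72e-05). With the offset they were 1.27, 1.43 and 2.05. Kcne3 (Entrez gene 57442, chromosome 7, 100176507 to 100184869), a partner that keeps Kcnq1 channels open in epithelia, was at 4.93 and 3.37 CPM in PBS, 3.13 and 1.99 in iFTn-R4, 0.859 and 0.551 in iFTn-M4, and 0.378 and 1.04 in iFTn-MR4. The iFTn-M4 and iFTn-MR4 libraries overlapped with each other and lay below the rest. It fell 5.85-fold in iFTn-M4 (-2.55 ± 0.44, edgeR adjusted p = 0.00178) and 5.79-fold in iFTn-MR4 (-2.53 ± 0.45, 0.00132), or -2.27 and -2.2 with the offset. Its transcript is the shortest of the tested channel genes, at 840.9 bases. Without iFTn-MR4 replicate 2 the iFTn-MR4 value was -3.42, and on log2(TPM + 1) the 2 values were -1.81 and -1.82.

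Other auxiliary subunits fell as well. Kcnab2, a cytosolic beta subunit, was at 28.1 and 24.4 CPM in PBS, 25.5 and 24.1 in iFTn-R4, 19.4 and 21.0 in iFTn-M4, and 14.7 and 14.0 in iFTn-MR4. It fell by 0.87 ± 0.11 on the log2 scale in iFTn-MR4 (edgeR adjusted p = 0.000179), or 0.86 with the offset. Its fall of 0.38 ± 0.10 in iFTn-M4 (edgeR adjusted p = 0.0164) ended without PBS replicate 1 or iFTn-M4 replicate 1 (0.124 and 0.0922) and on TPM (0.253). Kcne4, an inhibitory partner of Kv channels, was at 12.4 and 16.5 CPM in PBS and 7.26 and 8.83 in iFTn-MR4 (-0.85 ± 0.17, edgeR adjusted p = 0.0028, and -0.67 with the offset). The beta subunit Kcnab1 rose, from 0.695 and 0.859 CPM in PBS to 2.36 and 2.07 in iFTn-M4 (1.5 ± 0.32, edgeR adjusted p = 0.00521), and its value was 0.67 on log2(TPM + 1). In all, 11 of 13 auxiliary subunits were tested, of which 4 rose and 2 fell in iFTn-M4, 2 and 0 in iFTn-R4, and 3 and 3 in iFTn-MR4. These counts were the same with the offset.

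Neutrophil markers were lower in iFTn-M4 and iFTn-MR4, and other white blood cell markers differed in direction. The summed level of 4 neutrophil markers, all 4 of which fell in iFTn-M4 and iFTn-MR4, was 125 to 143 CPM in PBS, 93.4 to 130 in iFTn-R4, 34.5 to 64.0 in iFTn-M4 and 36.5 to 39.4 in iFTn-MR4. For 6 macrophage and monocyte markers it was 1240 to 2040, 1370 to 1410, 1980 to 2180 and 1710 to 1730 CPM in the same order, and 2 rose and 2 fell in iFTn-MR4. For 5 lymphocyte markers it was 4.23 to 4.80, 3.38 to 4.75, 3.86 to 5.31 and 2.23 to 2.42 CPM. Their part in the falls of Kcne3, Kcnab2 and Kcnn4 was not tested. In bulk tissue, fewer cells of a type and less RNA per cell cannot be told apart.

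Kcnn4, the intermediate-conductance calcium-activated channel of blood and vascular cells, was at 11.6 and 10.6 CPM in PBS, 11.6 and 6.57 in iFTn-R4, 8.73 and 8.41 in iFTn-M4, and 2.95 and 3.64 in iFTn-MR4. The iFTn-MR4 libraries were lowest and overlapped with no group. It fell 3.37-fold in iFTn-MR4 (-1.75 ± 0.27, edgeR adjusted p = 0.000568, and -1.52 with the offset). The small-conductance genes of the same family rose. Kcnn2, found in atrial and ventricular muscle, was at 7.71 and 9.32 CPM in PBS, 6.75 and 8.03 in iFTn-R4, 12.2 and 13.0 in iFTn-M4, and 16.4 and 16.9 in iFTn-MR4. It rose by 0.57 ± 0.15 in iFTn-M4 and 0.97 ± 0.15 in iFTn-MR4 (edgeR adjusted p = 0.0124 and 0.000522, and 0.69 and 1.12 with the offset). The iFTn-M4 call ended without PBS replicate 1 or iFTn-M4 replicate 2 (0.0881 and 0.0745). Kcnn3, another small-conductance gene, rose in all 3 groups, unlike Kcnn2. It was at 2.15 and 2.18 CPM in PBS, 4.06 and 4.71 in iFTn-R4, 4.58 and 5.1 in iFTn-M4, and 3.63 and 3.12 in iFTn-MR4. Its rises were 1.02, 1.16 and 0.64 (edgeR adjusted p = 0.00874, 0.00269 and 0.0411). With the offset only the iFTn-M4 value passed, at 0.82, and on log2(TPM + 1) that value was 0.52. The iFTn-R4 call ended without PBS replicate 1 (0.0514), and the iFTn-MR4 call ended in 6 of the 8 fits without a library, all but those without an iFTn-R4 library (0.0589 to 0.177). Of 7 tested calcium- and sodium-activated genes, 3 rose in iFTn-M4, 1 in iFTn-R4 and 4 in iFTn-MR4, and Kcnn4 in iFTn-MR4 was the only fall among these. With the offset 3, 0 and 2 of the 7 rose.

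**Figure D3:**
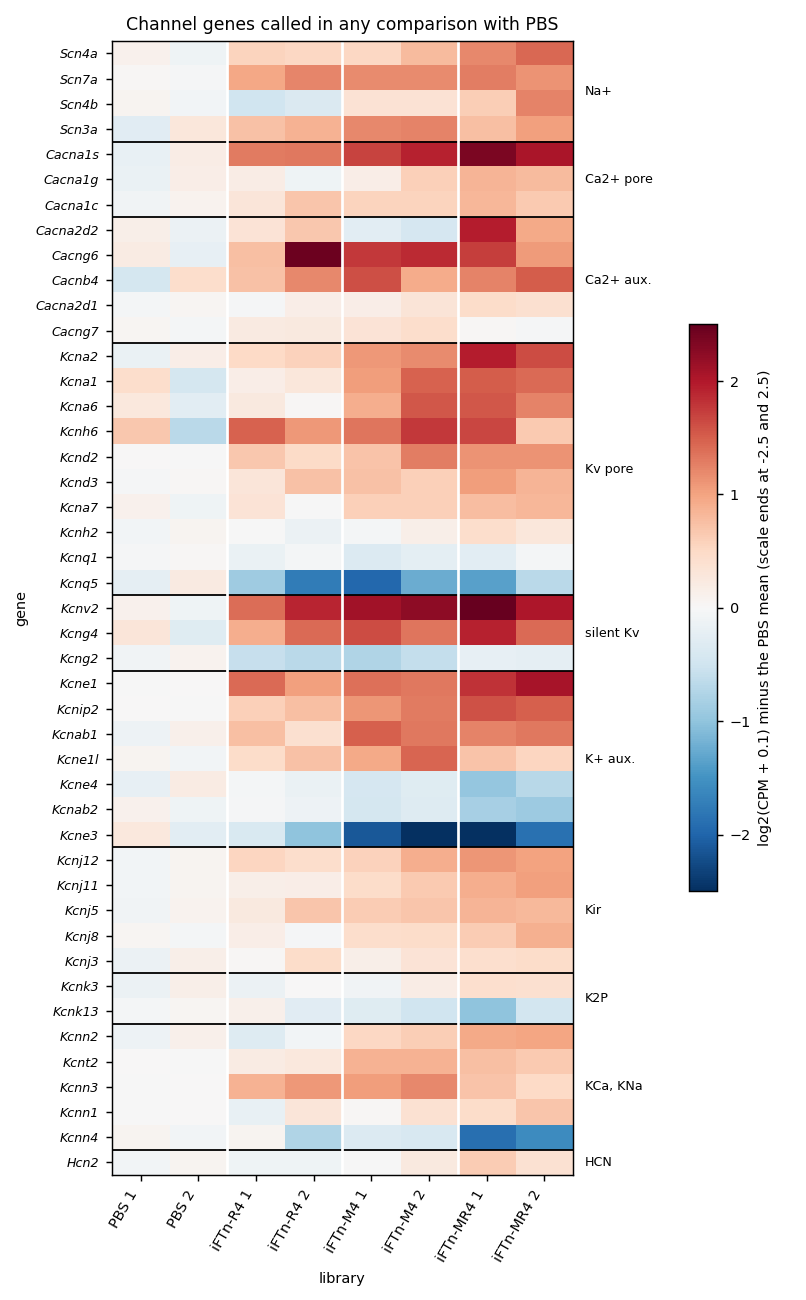
A set of 45 of the channel genes called in any comparison with PBS (rows, grouped by family) in the 8 libraries (columns), coloured by log2(CPM + 0.1) minus the PBS mean, with the scale ending at -2.5 and 2.5. Rows are mostly red (above PBS) in iFTn-MR4, and Kcne3 and Kcnn4 are blue (below PBS) there.

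Of 10 tested sodium channel genes, 3 rose and 1 fell in iFTn-M4, 3 rose and 1 fell in iFTn-R4, and 4 rose and 0 fell in iFTn-MR4. In the same groups 19.8%, 13.9% and 24.6% of all genes rose and 21.4%, 15.4% and 26.3% fell. With the offset 2 sodium channel genes rose and 2 fell in iFTn-M4, 1 rose and 1 fell in iFTn-R4, and 4 rose and 2 fell in iFTn-MR4. Scn7a (Entrez gene 20272, chromosome 2, 66673426 to 66784910), the sodium-sensing relative found in glia and other non-muscle cells, was at 24.3 and 23.3 CPM in PBS, 46.9 and 55.5 in iFTn-R4, 54.0 and 54.3 in iFTn-M4, and 57.8 and 51.8 in iFTn-MR4. The nanocage groups overlapped with one another and all lay above PBS. It rose 2.15-fold, 2.28-fold and 2.30-fold (log2 fold change 1.1 ± 0.10, 1.19 ± 0.10 and 1.2 ± 0.10, edgeR adjusted p = 0.000361, 4.47e-05 and 2.31e-05), or 0.80, 0.86 and 0.87 with the offset. Schwann cell and neuron markers went both ways. Of 6 tested, 1 rose and 1 fell in iFTn-M4, and 0 rose and 0 fell in iFTn-R4. In iFTn-MR4 2 rose and 1 fell, or 3 and 1 with the offset. The median log2 fold changes without the offset were 0.29, -0.15 and 0.52 in iFTn-M4, iFTn-R4 and iFTn-MR4. Over 7 such markers the summed level was 45.9 to 53.9 CPM in PBS and 32.3 to 43.8 CPM in the nanocage groups. Over 6 fibroblast markers it was 2990 to 3010 CPM in PBS and 3870 to 5700 in the nanocage groups, with 4, 4 and 5 of 6 rising in iFTn-M4, iFTn-R4 and iFTn-MR4. Their part in the rise was not tested.

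Scn4a and Cacna1s, the sodium and L-type calcium pores best known from skeletal muscle, rose together. Cacna1s (Entrez gene 12292, chromosome 1, 136052806 to 136119822) was at 4.11 and 5.29 CPM in PBS, 11.6 and 11.8 in iFTn-R4, 15.3 and 17.9 in iFTn-M4, and 24.1 and 19.5 in iFTn-MR4. The 4 groups did not overlap. It rose 2.49-fold, 3.54-fold and 4.65-fold (1.32 ± 0.18, 1.82 ± 0.17 and 2.22 ± 0.17, edgeR adjusted p = 0.00124, 7.75e-05 and 1.46e-05), or 1.06, 1.57 and 1.96 with the offset. Scn4a was at 15.7 and 13.4 CPM in PBS, 21.4 and 20.7 in iFTn-R4, 20.8 and 25.2 in iFTn-M4, and 33.3 and 39.4 in iFTn-MR4. It rose by 0.53 ± 0.14, 0.66 ± 0.14 and 1.32 ± 0.13 (edgeR adjusted p = 0.0173, 0.00412 and 5.55e-05), but with the offset passed only in iFTn-MR4, at 0.96. Without PBS replicate 2 the iFTn-R4 call of Scn4a ended (0.115). Of the skeletal muscle markers, a list added after the values were seen, 4 were tested, 0 rose in any group, and 1 and 2 fell in iFTn-M4 and iFTn-MR4. With the offset 0 rose, and 0 and 1 fell in iFTn-M4 and iFTn-MR4, where the medians went from -0.11 and -0.69 to 0.17 and -0.34. The summed level of these markers over 6 genes was 36.5 to 36.6 CPM in PBS, 29.2 to 38.7 in iFTn-R4, 31.6 to 33.3 in iFTn-M4 and 22.3 to 22.7 in iFTn-MR4. Any part of skeletal muscle in the values of Scn4a and Cacna1s was not tested. Scn4b, a beta subunit that speeds recovery of the sodium current, was at 12.6 and 11.3 CPM in PBS, 8.38 and 9.29 in iFTn-R4, 15.3 and 15.4 in iFTn-M4, and 18.4 and 28.2 in iFTn-MR4, where it rose by 0.96 ± 0.18 (edgeR adjusted p = 0.00195, and 0.82 with the offset).

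Cacna1c (Entrez gene 12288, chromosome 6, 118587240 to 119197384), the pore of the cardiac L-type channel, was at 234 and 265 CPM in PBS, 308 and 403 in iFTn-R4, 366 and 364 in iFTn-M4, and 442 and 390 in iFTn-MR4. All nanocage libraries lay above PBS, with iFTn-R4 the most spread. It rose by 0.51 ± 0.13, 0.55 ± 0.13 and 0.74 ± 0.13 (edgeR adjusted p = 0.0161, 0.00734 and 0.00113). At 12070 bases its transcript is long, and with the offset the values were 0.10, 0.10 and 0.27, none of which passed (edgeR adjusted p = 0.627, 0.561 and 0.101). Without PBS replicate 1 neither the iFTn-R4 nor the iFTn-M4 value passed (0.107 and 0.0607), and without iFTn-R4 replicate 2 the former did not (0.0605). The T-type pore Cacna1g was at 18.1 and 22.8 CPM in PBS and 36.9 and 35.4 in iFTn-MR4, where it rose by 0.82 ± 0.16 (edgeR adjusted p = 0.00254, and 0.49 with the offset). The other T-type pore, Cacna1h, ranged from 11.8 to 23.3 CPM and passed nowhere.

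Of 8 tested auxiliary calcium channel subunits, 3 rose in iFTn-M4, 1 in iFTn-R4 and 3 in iFTn-MR4, and 0 fell. With the offset 2, 1 and 3 rose. Cacna2d1, the main cardiac alpha2delta subunit, was at 122 and 130 CPM in PBS and 172 and 166 in iFTn-MR4, where it rose by 0.42 ± 0.09 (edgeR adjusted p = 0.00426). With the offset it did not pass, at 0.14 (0.247). Cacnb2, the main cardiac beta subunit, ranged from 54.4 to 83.1 CPM and passed in no comparison with PBS. Cacna2d2 was at 1.07 and 0.859 CPM in PBS and 4.01 and 1.93 in iFTn-MR4 (1.61 ± 0.40, edgeR adjusted p = 0.00847, and 1.39 with the offset). On log2(TPM + 1) its value was 0.55, and its call ended without PBS replicate 2 or iFTn-MR4 replicate 1 (0.0554 and 0.0981). Cacng6 was at 0.569 and 0.397 CPM in PBS, 0.875 and 3.05 in iFTn-R4, and 1.86 and 2.0 in iFTn-M4 (1.99 ± 0.61 and 1.98 ± 0.62, edgeR adjusted p = 0.0367 and 0.0288). Without any single PBS or iFTn-M4 library the iFTn-M4 call ended (0.084 to 0.136). The iFTn-R4 call held only without iFTn-R4 replicate 1, at 2.63, and without iFTn-R4 replicate 2 the value was 0.83 (edgeR adjusted p = 0.31). On log2(TPM + 1) the 2 values were 0.93 and 0.99.

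Of 9 tested inward rectifier genes, 4 rose in iFTn-M4, 2 in iFTn-R4 and 5 in iFTn-MR4, and 0 fell. In the same groups 19.8%, 13.9% and 24.6% of all genes rose. With the offset 4, 0 and 4 of the 9 rose, against 16.9%, 6.48% and 24.5% of all genes, and 1 fell in iFTn-M4. Kcnj11 (Entrez gene 16514, chromosome 7, 46097123 to 46100952), the pore of the ventricular KATP channel, was at 85.9 and 94.2 CPM in PBS, 100 and 101 in iFTn-R4, 124 and 142 in iFTn-M4, and 169 and 182 in iFTn-MR4. The 4 groups did not overlap. It rose by 0.56 ± 0.09 in iFTn-M4 and 0.96 ± 0.09 in iFTn-MR4 (edgeR adjusted p = 0.00107 and 3.88e-05), or 0.63 and 1.05 with the offset. Kcnj8, the KATP pore of vascular smooth muscle and pericytes, was at 35.4 and 33.2 CPM in PBS, 38.7 and 33.7 in iFTn-R4, 46.7 and 47.3 in iFTn-M4, and 53.4 and 63.5 in iFTn-MR4. It rose by 0.45 ± 0.11 and 0.77 ± 0.10 in iFTn-M4 and iFTn-MR4 (edgeR adjusted p = 0.00753 and 0.000294), or 0.59 and 0.94 with the offset, and the former did not pass without PBS replicate 2 (0.0557). Abcc9, the sulfonylurea receptor that completes these channels, was at 171 and 193 CPM in PBS, 305 and 349 in iFTn-R4, 400 and 405 in iFTn-M4, and 477 and 541 in iFTn-MR4. It rose by 0.85, 1.15 and 1.48 (edgeR adjusted p = 0.000838, 5.5e-05 and 8.76e-06), or 0.54, 0.82 and 1.15 with the offset. Smooth muscle and pericyte markers, 7 in number, summed to 1120 to 1140 CPM in PBS and 1290 to 1970 in the nanocage groups. Kcnj8 and Abcc9 are among the 7, so this sum is not independent of them. Of the 7, 5 rose in iFTn-M4, 3 in iFTn-R4 and 4 in iFTn-MR4, where 1 fell. These counts also include Kcnj8 and Abcc9. The part of the other markers in the rise of Kcnj8 was not tested.

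The classical inward rectifiers diverged. Kcnj2, the major pore of the resting current, ranged from 41.0 to 54.1 CPM over the 8 libraries and passed against PBS only in iFTn-M4 with the offset (-0.35, edgeR adjusted p = 0.0265). Kcnj12, its lesser partner, was at 19.9 and 21.9 CPM in PBS, 30.2 and 28.3 in iFTn-R4, 31.3 and 39.4 in iFTn-M4, and 45.1 and 42.0 in iFTn-MR4. It rose by 0.48 ± 0.12, 0.76 ± 0.12 and 1.06 ± 0.12 (edgeR adjusted p = 0.0161, 0.00107 and 0.000104), or 0.35, 0.65 and 0.96 with the offset. The iFTn-R4 value did not pass with the offset (0.0833) or without PBS replicate 1 (0.101). Kcnj5, a pore of the acetylcholine-gated channel, was at 56.7 and 63.8 CPM in PBS, 71.7 and 97.3 in iFTn-R4, 93.9 and 97.2 in iFTn-M4, and 109 and 106 in iFTn-MR4. It rose by 0.49 ± 0.13, 0.66 ± 0.13 and 0.84 ± 0.13 (edgeR adjusted p = 0.0197, 0.00296 and 0.000569). With the offset the iFTn-R4 value was 0.34 and did not pass (0.123), nor did it without PBS replicate 1 or iFTn-R4 replicate 2 (0.123 and 0.0802). Its partner Kcnj3 rose only in iFTn-MR4 (0.44 ± 0.15, edgeR adjusted p = 0.0326), a call that ended with the offset (0.125) and without PBS replicate 1 or either iFTn-MR4 library (0.0937 to 0.208).

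**Figure D4:**
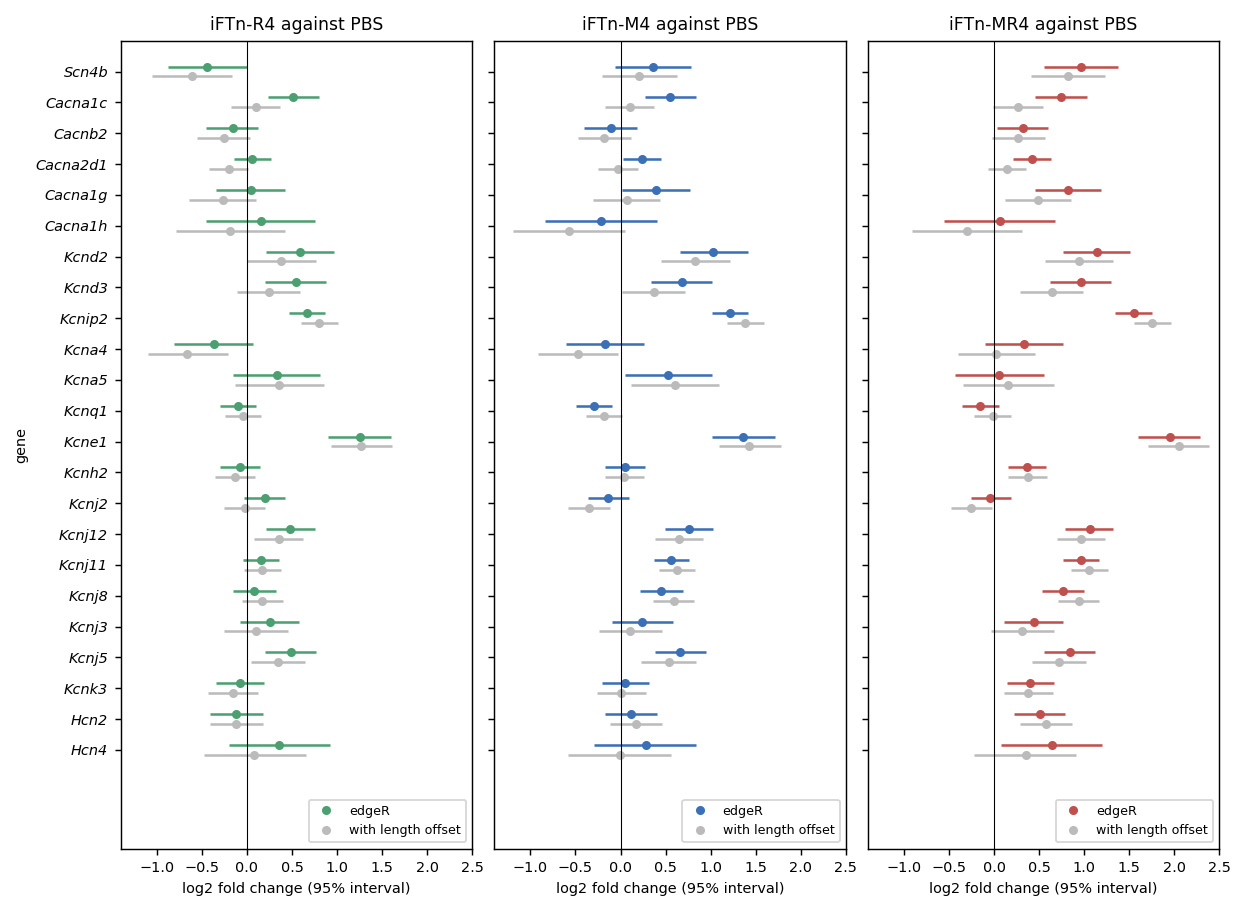
Log2 fold change against PBS (x axis) with its 95% interval for 23 genes of the main cardiac currents (y axis), from edgeR (coloured) and from edgeR with the length offset (grey), in a panel for each nanocage. Kcnip2 and Kcne1 lie to the right of 0 in every panel with either fit, while Cacna1c moves from 0.74 to 0.27 in iFTn-MR4 when the offset is added.

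Of 5 tested background potassium (K2P) genes, 1 rose and 1 fell in iFTn-MR4, or 1 and 2 with the offset. Kcnk3, a background potassium channel (TASK-1) and the second most abundant channel gene of PBS hearts in TPM (60.8 ± 6.07), was at 142 and 174 CPM in PBS and 211 and 207 in iFTn-MR4. It rose there by 0.40 ± 0.12 (edgeR adjusted p = 0.0177, and 0.38 with the offset). That call ended without PBS replicate 1 or either iFTn-MR4 library (0.0564 to 0.141). Hcn2, the main pacemaker subunit of ventricle, was at 17.4 and 19.4 CPM in PBS and 28.6 and 23.8 in iFTn-MR4 (0.51 ± 0.13, edgeR adjusted p = 0.00891, and 0.58 with the offset). It did not pass without PBS replicate 1 or iFTn-MR4 replicate 1 (0.0664 and 0.0755). Hcn4, the subunit of the sinus node, ranged from 5.69 to 11.1 CPM and passed in no comparison with PBS.

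The nanocages also differed among themselves within the table they share, where the Spearman correlation with length was 0.01 to 0.07 over all genes. Between iFTn-MR4 and iFTn-R4, 24 channel genes were higher in iFTn-MR4 and 4 lower, a total of 28, against 12.6%, 14.6% and 27.2% of all genes, with a median of 0.30. With the offset these were 27 and 4, against 15.6% and 12.6% of all genes. Without iFTn-MR4 replicate 1 the total went from 28 to 12. Calls of 10 genes held under each setting listed in the closing section, namely Cacna1s, Kcna2, Kcnab2, Kcnip2, Kcnj11, Kcnj8, Kcnn2, Kcnn4, Scn4a and Scn4b. Among the rises of these 10 genes that of Scn4b was the largest, 2.64-fold (1.4 ± 0.19, edgeR adjusted p = 0.0011), followed by Kcna2 (1.29 ± 0.21, 0.00269) and Kcnn2 (1.17 ± 0.15, 0.000831). Kcnip2 was 1.84-fold and Kcnj11 1.75-fold higher (0.88 ± 0.09 and 0.80 ± 0.09, edgeR adjusted p = 0.000371 and 0.00045). Kcna6 and Kcna1, Kv1 pores at 1.72 to 2.92 CPM in iFTn-R4, were higher in iFTn-MR4 by 1.3 ± 0.31 and 1.27 ± 0.28 (edgeR adjusted p = 0.0131 and 0.0102), but not without iFTn-MR4 replicate 1 (0.0948 and 0.0688), nor, for Kcna1, without iFTn-MR4 replicate 2 (0.0538). On log2(TPM + 1) Kcna2, Kcna6 and Kcna1 were at 0.48, 0.53 and 0.51. Kcnn4 was 2.76-fold lower and Kcnab2 1.73-fold lower in iFTn-MR4 (-1.47 ± 0.27 and -0.79 ± 0.11, edgeR adjusted p = 0.00463 and 0.00119). Kcne3 and Kcne4 were lower by 1.84 ± 0.47 and 0.73 ± 0.17 on the log2 scale (edgeR adjusted p = 0.0186 and 0.0131). The former call ended without iFTn-R4 replicate 1 or iFTn-MR4 replicate 1 (0.0891 and 0.132) and reached -2.75 without iFTn-MR4 replicate 2, and the latter ended without iFTn-MR4 replicate 1 (0.0939).

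Against iFTn-M4, iFTn-R4 had 1 channel gene higher and 5 lower, against 3.43% and 2.5% of all genes (5.93% in either direction), and a median of -0.16. With the offset 1 was higher and 6 lower, against 3.17% and 2.97% (6.15% in either direction). The genes were Kcne3 (higher, 1.86 ± 0.47, edgeR adjusted p = 0.0487) and Scn4b, Kcnn2, Kcnt2, Kcnip2 and Kcnj11 (lower, -0.80, -0.77, -0.64, -0.54 and -0.41, edgeR adjusted p = 0.0101 to 0.0424). Each of these calls ended in at least 1 fit without a library, and without iFTn-M4 replicate 2 none passed. The calls of Kcnn2, Kcne3, Scn4b and Kcnt2 also ended without iFTn-M4 replicate 1. Those of Kcnj11, Kcne3 and Kcnt2 ended when either iFTn-MR4 library was left out. Between iFTn-MR4 and iFTn-M4 edgeR called 0 channel genes, against 0.0215% and 0.344% of all genes higher and lower. In that test 29 channel genes had an unadjusted p under 0.05, 21 of them higher in iFTn-MR4 (median over the 82 genes 0.14). The share of all genes under that unadjusted threshold is not given here, so these 29 have no baseline. With the offset 0 channel genes were called as well, against 0.0358% and 0.251% of all genes. DESeq2 called 3 channel genes higher and 1 lower, against 81 higher and 271 lower of all 13953 genes. In limma on TPM 0 channel genes were called. Counts with each library left out are in the closing section. For Kcnip2 the difference was 0.34 ± 0.09 (edgeR adjusted p = 0.115) and for Kcnj11 0.40 ± 0.09 (0.0861).

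The mean level of 26 of the 82 channel genes (31.7%) followed the order PBS, iFTn-R4, iFTn-M4, iFTn-MR4 from low to high, against 14.7% of all tested genes. iFTn-MR4 held the highest mean for 42 channel genes (51.2%, against 30.5% of all genes), and PBS the lowest for 45 (54.9%, against 37%). Cardiomyocyte markers did not follow this order. The summed level of 9 such markers was 43700 to 44700 CPM in PBS, 37900 to 38100 in iFTn-R4, 57900 to 60900 in iFTn-M4 and 65800 to 69100 in iFTn-MR4. Of the 9, 4 rose in iFTn-M4, 7 rose in iFTn-MR4, and 1 rose and 5 fell in iFTn-R4. With the offset 6 rose in iFTn-M4, 7 rose in iFTn-MR4, and 1 rose and 1 fell in iFTn-R4, where the median went from -0.37 to -0.08. The part of cell composition in the channel values of the 3 groups was not tested. Atrial markers differed within iFTn-MR4. Myl7, an atrial myosin light chain, was at 19.8 CPM in iFTn-MR4 replicate 1, 1.26 in replicate 2 and 0.143 to 1.83 in the other groups. The summed level of 4 atrial markers with values was 1880 to 2270 CPM in PBS, 1050 to 1070 in iFTn-R4, 935 to 941 in iFTn-M4 and 289 to 393 in iFTn-MR4, and Nppa made up most of it. Of the 3 tested, Myl7 and Myl4 rose and Nppa fell in iFTn-MR4 (median log2 fold change 3.07), and Nppa fell in the other 2 groups. Their part in the values of iFTn-MR4 replicate 1 was not tested. The atrial peptide gene Nppa was at 1880 and 2270 CPM in PBS and 351 and 284 in iFTn-MR4.

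Genes that work with the channels were counted from a list of 42 partners and regulators, 38 of them tested. In iFTn-M4 13 rose and 10 fell, in iFTn-R4 11 rose and 12 fell, and in iFTn-MR4 18 rose and 5 fell. With the offset the counts were 13 and 9, 6 and 11, and 20 and 3. Of all genes 19.8%, 13.9% and 24.6% rose and 21.4%, 15.4% and 26.3% fell in the same groups without the offset. Atp1b1 and Nkx2-5, named after the values were seen, fell in all 3 groups without the offset, while most of the list did not. Atp1b1, the beta subunit of the sodium pump, went from 362 and 402 CPM in PBS to 215 and 245 in iFTn-R4, 220 and 235 in iFTn-M4, and 263 and 272 in iFTn-MR4. It fell by 0.73, 0.75 and 0.51 on the log2 scale (edgeR adjusted p = 0.000975, 0.000292 and 0.00135). Nkx2-5, a cardiac transcription factor, was at 53.8 and 56.9 CPM in PBS and 34.1 to 40.1 CPM in the nanocage libraries. It fell by 0.60, 0.67 and 0.51 (edgeR adjusted p = 0.00169, 0.000402 and 0.00117), and with the offset the last was -0.22 and did not pass (0.0703).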

How the data were processed

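The measurement was poly(A) mRNA of heart tissue, selected with oligo-dT and read by DNA nanoball sequencing, per the labels' protocols. The submitters' processing notes name HISAT2 2.1.0, Bowtie2 2.2.5, RSEM 1.2.8 and the mouse build GRCm38.p6. Expected counts were deposited per gene, and 5.09% of these values were not whole (tolerance 1e-09). FPKM values, deposited beside them, served with the counts to obtain effective lengths. TPM values, also deposited, gave levels between genes. The PBS and nanocage tables hold 17051 and 17788 genes, and 0 columns were left unused. Whether counting used strand is not given in the sources used here.

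After rounding, the expected counts went into edgeR 4.0.16 under R 4.3.3, with TMM scaling. Of the genes, 13953 passed filterByExpr. The 8 libraries shared a single quasi-likelihood model of group means, with 2-sided tests and Benjamini-Hochberg adjustment across those genes at 0.05. Each standard error comes from the log2 fold change and its F value. The length offset is a natural spline (4 degrees of freedom) of each library's log2 ratio to the mean library on log2 effective length, over genes averaging 50 counts or more. Lengths were taken where a gene had 10 counts or more. Floors cover counting error only. The scripts were tested on simulated data.

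Named genes are 26 genes of the main cardiac currents and, in each comparison, up to 5 rises and 5 falls that passed, reached 1 CPM in the higher group and had no overlap between libraries. Some genes that met this rule are not reported here. Kcna7, Kcnd1, Kcnn3, Scn3a, Scn4a, the partners and single markers were named after their values were seen. The members and lists were chosen with earlier results of these data known. Alternatives were RLE size factors, library size alone, no filter, DESeq2 1.42.0, limma 3.58.1 on log2(TPM + 1) and log2(TPM + 0.1), only the groups compared, a replicate block, the length offset, the block with the offset, and each library left out. Coordinates are RefSeq's on GRCm38.p6, where all 128 genes were found. Promoters were taken from a separate list on the same build, which held 58 of the tested channel genes.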

Additional observations from a re-analysis of the deposited data

How the results depend on the processing

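Counts of channel genes called stayed within 1.5 times the value reported, except as follows. In iFTn-R4 against PBS 18 became 10 with the length offset, 9 with the replicate block and the offset, and 11 with only the groups compared. In iFTn-MR4 against iFTn-M4 0 became 5 with the replicate block, 5 with the block and the offset, 9 with only the groups compared and 4 in DESeq2. In iFTn-R4 against iFTn-M4 6 became 0 with only the groups compared and 1 on log2(TPM + 1) and on log2(TPM + 0.1). The cause was not tested. Leaving out each library in turn gave 25 to 40 in iFTn-M4 against PBS, 9 to 19 in iFTn-R4 against PBS, 32 to 47 in iFTn-MR4 against PBS, 0 to 8 in iFTn-MR4 against iFTn-M4, 12 to 33 in iFTn-MR4 against iFTn-R4 and 0 to 6 in iFTn-R4 against iFTn-M4. The group left with 1 library is then assumed to vary like the others. No named gene that was called changed sign under any of these settings. Calls that held under every setting in which the gene was tested numbered 16 of 38 in iFTn-M4, 6 of 18 in iFTn-R4 and 25 of 41 in iFTn-MR4 against PBS, and 10 of 28 in iFTn-MR4 against iFTn-R4, and 0 of 6 in iFTn-R4 against iFTn-M4. The same counts were not made over all genes, so the stability of the channel calls has no baseline here. Same-numbered libraries of different groups deviated together with correlations of -0.01 to 0.15, not all above 0.1, so the numbers were not taken as pairs.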
